A study of Homo sapiens with 6 samples.

Results

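CD24 and 9 genes used as stemness or surface markers (CD44, PROM1, ALDH1A1, ALDH1A3, EPCAM, ALCAM, CD47, SIGLEC10 and CD9) were followed across the RNA of DU145 cells, a human metastatic prostate cancer cell line. The genes were given by name, with earlier results of these data known, and all 10 were found by symbol among the 27381 genes of the deposited table. The labels describe 6 libraries in 3 conditions, all in DU145 cells: 2 libraries from cells with a scrambled sgRNA (Scr), 2 from CD24 KO cells and 2 from RCC2 KO cells, the KO cells having been edited with CRISPR/Cas9. According to the methods, edited cells were sorted on GFP and grown as clones, with 2 clones for each targeted gene in DU145, and the labels do not say which clone a library came from. The study asks how CD24, a surface protein, and RCC2, a regulator of chromosome condensation, act together in prostate cancer cells.

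The table gives 1 value per gene and condition, in FPKM (a fragment count divided by the length of the transcript and by the size of the library). A difference between conditions therefore has no SD between libraries and no test, and every comparison here is between 3 columns. The name of the RCC2 KO column is also the whole description of 1 of its 2 libraries, so this column may hold 1 library or both. The number of fragments behind the values is unknown. The columns sum to 451272 FPKM in Scr, 388764 FPKM in the column labelled CD24 KO and 447005 FPKM in the column labelled RCC2 KO. Genes with at least 1 FPKM in at least 1 column (12822 genes) were compared as differences of log2(FPKM + 1), a scale that understates the change of genes with low values, and a gene was called changed at 2-fold or more.

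CD24 is a small, heavily glycosylated protein held on the outer membrane by a glycosylphosphatidylinositol (GPI) anchor. On tumour cells it is known as a ligand of Siglec-10, a receptor of macrophages that restrains phagocytosis, and CD47 gives a similar signal through SIRPα. CD44, the main hyaluronan receptor, prominin 1 (PROM1, CD133), the retinaldehyde dehydrogenases ALDH1A1 and ALDH1A3, EPCAM and ALCAM (CD166) are widely used to mark stem-like tumour cells, often in combination with the presence or absence of CD24. CD9 is a tetraspanin, a membrane organizer of adhesion receptors and of extracellular vesicles.

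The position of CD24 in the table needs care. The table lists CD24 on chromosome Y from 21034387 to 21438350, in a stretch that it shares with the noncoding gene TTTY14, in a genome build not given in the sources used here. GENCODE 29 places CD24 on chromosome 6 of GRCh38, on the minus strand from 106969831 to 106975627, and names a pseudogene, CD24P4, on the minus strand of chromosome Y from 18992467 to 18992709. The coding sequence of CD24 (from 1 of its 7 protein-coding transcripts, chr6:106971661-106974646 on the minus strand, across an intron) and CD24P4 are shown because they are nearly the same, with the differing bases in capitals.
CD24: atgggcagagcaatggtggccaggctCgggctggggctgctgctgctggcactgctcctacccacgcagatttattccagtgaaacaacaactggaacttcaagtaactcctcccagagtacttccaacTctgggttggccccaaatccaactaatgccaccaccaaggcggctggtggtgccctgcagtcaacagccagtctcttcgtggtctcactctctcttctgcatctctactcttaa
CD24P4: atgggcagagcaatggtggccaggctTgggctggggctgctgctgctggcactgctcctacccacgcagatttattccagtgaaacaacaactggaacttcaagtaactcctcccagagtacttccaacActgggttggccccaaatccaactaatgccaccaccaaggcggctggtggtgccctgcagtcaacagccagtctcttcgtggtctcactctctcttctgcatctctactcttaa

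Of 243 bases, 241 were identical, and the 2 substitutions from CD24 to CD24P4 were C27T and T130A, counted from 1 at the A of the start codon. The longest stretch without a difference was 113 bases. The coding sequence makes up 11.1% of the 2180 bases of this transcript, so most of the transcript lies outside the annotated pseudogene. Only the coding sequence was compared with the copies, and the rest of the transcript was not compared with chromosome Y. The further copies CD24P2 on chromosome 15 and CD24P1 on chromosome 1 were 94.0% and 85.6% identical to the coding sequence over the aligned bases. The table has no gene under the name of a CD24 pseudogene. How fragments were divided between CD24 and its copies was not tested, and the level printed for CD24 may contain fragments of either. Of the other genes that the table places on chromosome Y, 10 were compared. On the log2(FPKM + 1) scale, none of them was at least 2-fold changed against Scr in either knockout. The median difference was -0.41 in the column labelled CD24 KO and 0.21 in that labelled RCC2 KO, and the highest were 0.25 and 0.97. Both of these highest differences were those of TTTY14, which is 1 of the 10. TTTY14 measured 0.439 FPKM in Scr, 0.712 FPKM in the column labelled CD24 KO and 1.82 FPKM in that labelled RCC2 KO. It was thus higher than Scr in both columns, at values far below CD24 where the scale understates a change.

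As the targeted gene, CD24 also checks the labels. Its level was 93.2 FPKM in Scr, 309 FPKM in the column labelled CD24 KO and 214 FPKM in the column labelled RCC2 KO. The RNA of CD24 was thus higher in both knockouts than in Scr, and highest where the gene was targeted, which goes against the label if a knockout is read as less RNA. These values measure RNA and not the protein on the cell surface. The ratio to Scr was 3.31 in the column labelled CD24 KO and 2.30 in that labelled RCC2 KO, or differences of 1.72 and 1.19 on the log2 scale. RCC2, the other targeted gene, was at 37.8, 14.2 and 41.8 FPKM in Scr, CD24 KO and RCC2 KO, lower than Scr only in the column labelled CD24 KO. Every direction that follows rests on column labels that the RNA of both targeted genes, on that reading, did not bear out. The study reported checks of its knockout lines by Sanger sequencing, Western blot and flow cytometry, which RNA levels do not address. CD24 KO and RCC2 KO stand below for the columns so labelled.

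The difference of CD24 from Scr was near the upper end of the table. Of the 12822 genes compared, 56 (CD24 included) had a difference at least as high in the column labelled CD24 KO, and 36 did in that labelled RCC2 KO. Many of the genes with larger values are low or listed at 0 in a column. Among the 7168 genes above 0 in every column and with a highest value of at least 10 FPKM, CD24 ranked 24th from the top in CD24 KO and 7th from the top in RCC2 KO. Both comparisons use the same Scr column, so a low value of CD24 in Scr would appear in each of them. Directly between the knockouts, CD24 was lower in RCC2 KO by a ratio of 0.693, a log2 difference of -0.53. In level, CD24 moved from percentile 93.6 of the genes compared in Scr to 99.0 in CD24 KO and 98.1 in RCC2 KO.

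**Figure D1:**
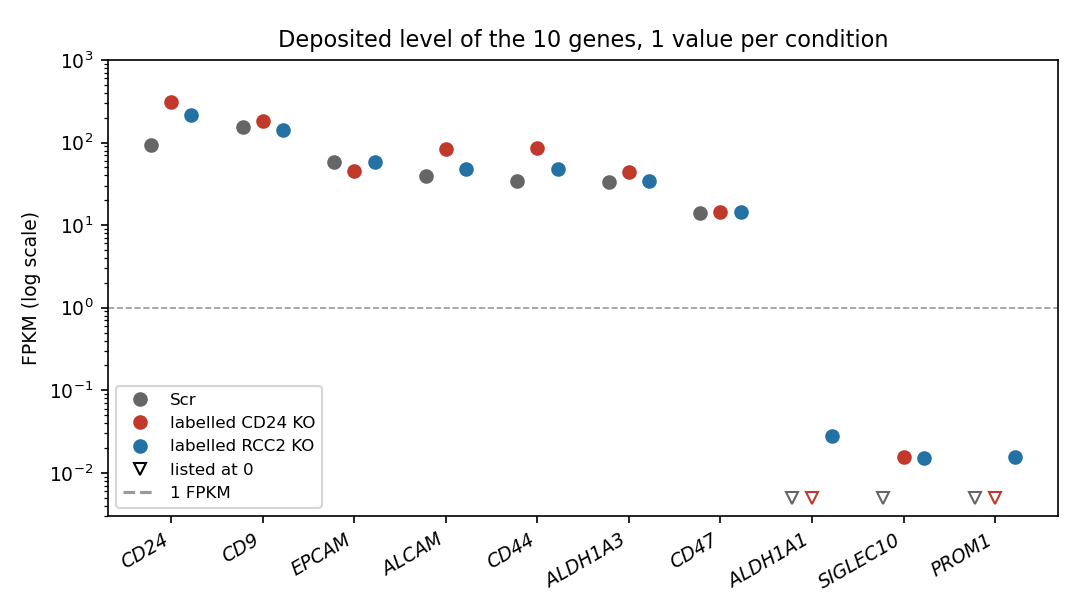
Level of the 10 genes in FPKM on a log axis, 1 point for each condition (Scr, labelled CD24 KO and labelled RCC2 KO) with no error bar because the table holds 1 value per condition. Open triangles stand for a value listed at 0 and the dashed line for 1 FPKM. Of the genes above 1 FPKM, all except EPCAM have their highest point in the column labelled CD24 KO. ALDH1A1, SIGLEC10 and PROM1 lie below 0.03 FPKM throughout.

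Of the 10 genes, 7 reached 1 FPKM and were compared. In the column labelled CD24 KO, 3 of the 7 (CD24, CD44 and ALCAM) were at least 2-fold higher than Scr, against 2.67% of all genes compared, and 0 were at least 2-fold lower, against 3.03%. Since all 7 are well expressed, the same shares among genes with at least 10 FPKM in a column (7198 genes) are of use. They were 2.14% higher and 4.15% lower. In the column labelled RCC2 KO, CD24 alone was at least 2-fold higher, against 0.406% of all genes compared and 0.361% of those with at least 10 FPKM, and 0 were lower, against 0.796% and 0.583%. The median log2 difference of the 7 genes was 0.41 in CD24 KO and 0.06 in RCC2 KO, beside -0.034 and -0.004 over all genes.

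CD44 followed CD24 in order but not in size. It measured 33.9 FPKM in Scr, 86.8 FPKM in the column labelled CD24 KO and 47.7 FPKM in that labelled RCC2 KO. The level was highest in CD24 KO, and RCC2 KO lay between the other two. The log2 difference from Scr was 1.33 in CD24 KO, where 133 of the genes compared were as high or higher, and 0.48 in RCC2 KO, where 325 were. GENCODE 29 lists 26 protein-coding transcripts of CD44, and a value per gene does not separate the standard form from variant forms. Its stretch in the table also holds SNORD164, listed at 0 in every column. The ratio of CD44 to CD24 in FPKM, which sets a pair of markers often read together side by side, was 0.364 in Scr, 0.281 in CD24 KO and 0.223 in RCC2 KO. Both RNAs had higher values than in Scr, CD24 by the larger factor in each knockout, and the ratio was lower than in Scr.

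ALCAM, an adhesion molecule of the immunoglobulin family, measured 39.5 FPKM in Scr, 84.3 FPKM in the column labelled CD24 KO and 48.3 FPKM in that labelled RCC2 KO. This is the same order as for CD24 and CD44, and also, with smaller differences, for ALDH1A3 and CD47. The log2 difference from Scr was 1.08 in CD24 KO, just past the 2-fold minimum, and 0.29 in RCC2 KO, where 1158 of the genes compared were as high or higher.

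ALDH1A3 was the ALDH1A gene that these cells expressed. It was at 33.2, 44.4 and 34.7 FPKM in Scr, CD24 KO and RCC2 KO. The ratio of 1.34 in CD24 KO stayed under the 2-fold minimum, and 2118 genes were as high or higher. Its stretch in the table also holds LRRK1 and LOC101927751, which were between 1.10 and 2.58 FPKM in all columns. CD9 was at 155, 183 and 142 FPKM in the same order of conditions and was the highest of the 10 genes in Scr. CD24 reached 0.6 of the level of CD9 in Scr, 1.69 of it in CD24 KO and 1.51 of it in RCC2 KO, so that CD24 took the first place in both knockouts.

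EPCAM, the epithelial cell adhesion molecule, was the one gene of the 7 that was lower in CD24 KO. It measured 58.9 FPKM in Scr, 44.9 FPKM in the column labelled CD24 KO and 58.6 FPKM in that labelled RCC2 KO. The log2 difference of -0.38 in CD24 KO lay well inside the 2-fold minimum, and 2761 of the genes compared were as low or lower. CD47 was nearly the same in the 3 columns, at 14, 14.6 and 14.4 FPKM, with log2 differences from Scr of 0.05 and 0.03. Without a spread between libraries, no difference of the 7 genes, large or small, can be told apart from variation between libraries or clones.

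The remaining 3 genes were under the 1 FPKM minimum. ALDH1A1 was listed at 0 in Scr and CD24 KO and at 0.0277 FPKM in RCC2 KO. PROM1 was listed at 0 in the same columns and at 0.0156 FPKM in RCC2 KO. SIGLEC10, the receptor of CD24, was listed at 0 in Scr and at 0.0156 and 0.0151 FPKM in CD24 KO and RCC2 KO, in a stretch shared with LOC100129083. No fold is given for these genes, since a 0 in this table is a listing and not proof that the RNA was absent. NEU1, a lysosomal sialidase that most cells use, was also listed at 0 in every column.

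Between the knockouts, with Scr left out, 0 of the 7 genes were at least 2-fold higher in RCC2 KO, against 4.02% of all genes, and 0 were at least 2-fold lower, against 4.30%. The largest log2 differences were those of CD44 (-0.85) and ALCAM (-0.79). Values were lower in RCC2 KO for 6 of the 7 genes and higher for EPCAM, at 0.38. The scaling of the columns touches these values. With the columns set to equal sums, CD44 was past the 2-fold minimum at -1.05, and all genes together moved to a median of -0.153.

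**Figure D2:**
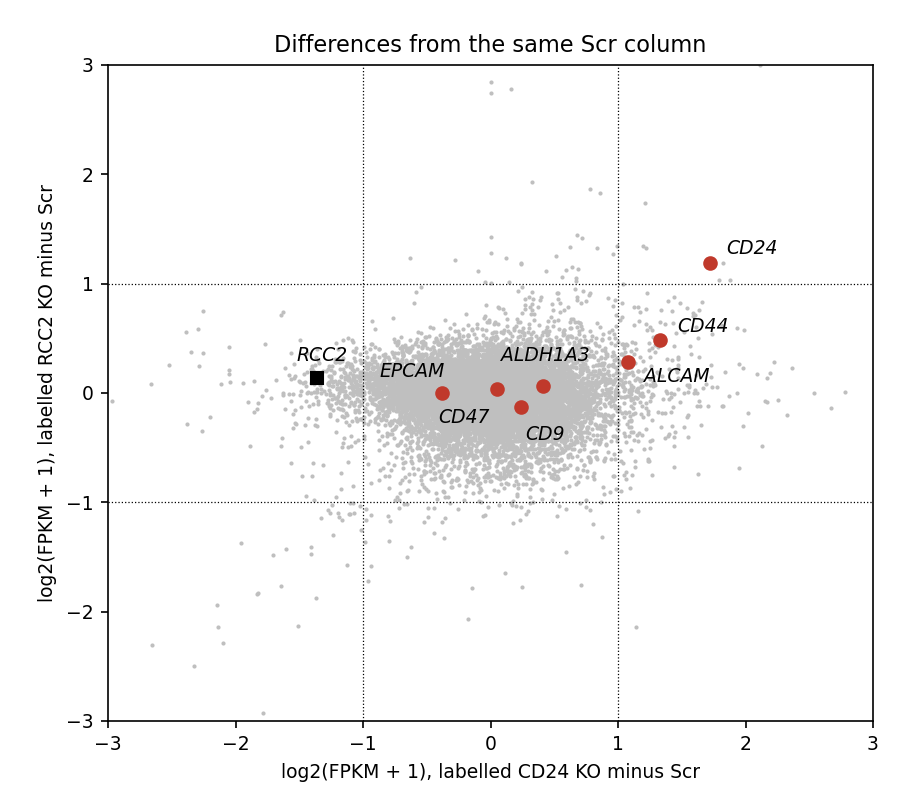
Difference of log2(FPKM + 1) from Scr for each gene compared, with the column labelled CD24 KO on the x axis and that labelled RCC2 KO on the y axis. Red points are the 7 genes with at least 1 FPKM, the black square is RCC2, grey points are the other genes (51 of the genes compared lie beyond the axes) and dotted lines mark 2-fold. Both axes use the same Scr column. CD24 stands at 1.72 and 1.19, past 2-fold on both axes, while CD44 and ALCAM are past it on the x axis alone.

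The cells were checked against markers of cell types. Of 7 epithelial genes, EPCAM among them, 6 were above 1 FPKM in all columns, with a summed level between 898 and 1292 FPKM. KRT5, a basal keratin, was listed at 0. The luminal keratins KRT8 and KRT18 measured 336 and 293 FPKM in Scr against 149 and 141 in CD24 KO and 348 and 305 in RCC2 KO. Their log2 differences in CD24 KO were -1.17 and -1.05, which became -0.96 and -0.83 with equal column sums, under the 2-fold minimum. The other expressed keratins of the list were higher than Scr in both knockouts without reaching 2-fold, KRT7 with 320, 398 and 449 FPKM and KRT19 with 83.5, 113 and 107 FPKM in Scr, CD24 KO and RCC2 KO. E-cadherin (CDH1) was at 27.9, 52.6 and 23.7 FPKM, a log2 difference of 0.89 in CD24 KO that became 1.10 with equal column sums. Of the prostate luminal genes, KLK3, KLK2 and HOXB13 were listed at 0 in every column. No gene of the leukocyte, fibroblast and endothelial lists reached 1 FPKM, and the summed level of the 10 leukocyte genes was between 0.526 and 1.58 FPKM. PTPRC, CD3E, CD3D and MS4A1 were listed at 0 in every column. In such bulk samples, fewer cells of a type and less RNA per cell cannot be told apart.

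The molecules around these markers were read in 11 lists with 220 genes, of which 170 were compared. In CD24 KO, 10 of them were at least 2-fold higher (5.88%, beside 2.67% of all genes compared) and 5 at least 2-fold lower (2.94%, beside 3.03%). The share that was lower was thus near that of the whole table. In RCC2 KO, 1 was higher and 1 lower, 0.588% each, beside 0.406% and 0.796% of all genes. At such shares, a count of 0 or 1 in a single list is near the background. The median log2 difference over the 170 genes was 0.044 in CD24 KO and -0.084 in RCC2 KO. No list had more than 3 genes changed in 1 direction, and the median of no list passed 0.4 on the log2 scale in either knockout.

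For the checkpoint of phagocytosis, 8 of 12 genes were compared and 0 changed in either knockout, with medians of -0.14 and -0.15. The shares over all genes compared were 2.67% higher and 3.03% lower in CD24 KO, and 0.406% and 0.796% in RCC2 KO. SIRPA, the receptor of CD47, was at 6.83, 10 and 6.27 FPKM in Scr, CD24 KO and RCC2 KO, although it is better known from myeloid cells. Calreticulin (CALR), which promotes phagocytosis, was at 872, 615 and 669 FPKM, and B2M, the light chain of MHC class I, was at 1286, 1921 and 1351 FPKM. Sialic acids carry the binding of CD24 to Siglec-10. Of 18 genes for their synthesis, transfer and removal, 14 were compared and 0 changed, with log2 differences from Scr between -0.71 and 0.66 in CD24 KO and between -0.56 and 0.31 in RCC2 KO.

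CD24 needs a GPI anchor to stay on the membrane. All 28 genes for the assembly of this anchor were compared. Only PIGW, which acylates the inositol of the anchor, was past 2-fold, with 7.10 FPKM in Scr against 2.99 in CD24 KO and 8.99 in RCC2 KO. PIGZ, a mannosyltransferase of the same pathway, was just under the minimum in CD24 KO, at 2.93, 6.64 and 1.32 FPKM in the 3 columns and a log2 difference of 0.96. With equal column sums PIGZ passed 2-fold in CD24 KO, at 1.14, and PIGW did not, at -0.85. The list medians were 0.06 and -0.07. Other proteins with this anchor went both ways. Of 23 genes compared in CD24 KO, 2 were at least 2-fold higher and 1 lower, beside 2.67% and 3.03% of all genes compared. ULBP1, a ligand of the receptor NKG2D, was at 9.27, 21.1 and 7.24 FPKM. PLAUR, the urokinase receptor, was at 45.9, 20.2 and 34.3 FPKM. GPC4, a glypican, was listed at 0 in Scr and RCC2 KO and at 4.80 FPKM in CD24 KO. In RCC2 KO, ULBP2 was the 1 gene of the list past 2-fold, at 6.04 FPKM in Scr and 2.11 FPKM in RCC2 KO. The share of all genes compared that was lower in RCC2 KO was 0.796%.

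Of 20 other surface markers of stem-like cells, 12 were compared and 1 was at least 2-fold higher in each knockout. Over all genes compared, 2.67% were higher in CD24 KO and 0.406% in RCC2 KO. The list gene higher in CD24 KO was CXCR4, a chemokine receptor, at 0.622, 3.97 and 0.819 FPKM. ITGA2 and ITGA6, integrin subunits used to isolate prostate basal cells, measured 16.0 and 42.8 FPKM in Scr against 10.7 and 39.0 in CD24 KO and 15.4 and 36.3 in RCC2 KO.

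Among transcription and chromatin factors linked to stemness, 11 of 18 were compared. Their median log2 difference was 0.39 in CD24 KO and -0.02 in RCC2 KO. As deposited, 0 were at least 2-fold higher against Scr, beside 2.67% of all genes compared in CD24 KO and 0.406% in RCC2 KO. EZH2, the methyltransferase of Polycomb complex PRC2, measured 34.8 FPKM in Scr against 16.0 in CD24 KO and 39.0 in RCC2 KO. It was the 1 gene at least 2-fold lower, in CD24 KO, where 3.03% of all genes compared were. SOX2, a pluripotency factor, was listed at 0 in Scr and RCC2 KO and at 0.0201 FPKM in CD24 KO. SOX4, KLF5 and KLF4 had log2 differences of 0.83, 0.62 and 0.42 in CD24 KO, each under the minimum, although SOX4 passed it with equal column sums, at 1.02.

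Of 17 other aldehyde dehydrogenases, 12 were compared. In CD24 KO, 2 of them were at least 2-fold higher, beside 2.67% of all genes compared. ALDH2, the mitochondrial enzyme of ethanol metabolism, was at 17.3, 39.7 and 20 FPKM in Scr, CD24 KO and RCC2 KO. ALDH6A1, an enzyme of valine breakdown, was at 7.44, 17.9 and 5.20 FPKM. The retinoid list, which holds the pathway that ALDH1A enzymes serve, had 1 gene higher and 1 lower among 12 compared in CD24 KO. Over all genes compared these shares were 2.67% and 3.03%. DHRS3, a retinal reductase, was at 7.08, 18.3 and 7.84 FPKM, and RDH13, a retinol dehydrogenase of mitochondria, was at 5.08, 2.03 and 5.41 FPKM.

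Among other tetraspanins and their partners, 3 of 23 genes compared were at least 2-fold higher in CD24 KO, beside 2.67% of all genes compared, and 0 changed in RCC2 KO, where 0.406% of all genes were higher and 0.796% lower. TSPAN7 was at 9.68, 32.9 and 9.99 FPKM, TSPAN2 at 1.90, 6.17 and 2.31 FPKM and TSPAN1 at 7.44, 15.9 and 5.94 FPKM. CD81 and CD63, which share membrane domains and vesicles with CD9, measured 89.4 and 225 FPKM in Scr against 80.6 and 220.0 in CD24 KO and 77.6 and 274 in RCC2 KO. Around CD44, 13 of 17 genes were compared. Ezrin (EZR), which links the tail of CD44 to actin, measured 154 FPKM in Scr against 71.8 in CD24 KO and 159 in RCC2 KO. CEMIP, a protein of hyaluronan breakdown, was at 0.547, 2.64 and 0.377 FPKM. ESRP1 and ESRP2, the splicing factors that favour variant forms of CD44, measured 2.68 and 5.94 FPKM in Scr against 3.97 and 3.75 in CD24 KO and 3.79 and 8.60 in RCC2 KO. The proteases and partners that act on EPCAM showed 0 genes past 2-fold against Scr among 14 compared. Over all genes compared, 2.67% were higher and 3.03% lower in CD24 KO, and 0.406% and 0.796% in RCC2 KO.

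The 5 list genes that were lower in CD24 KO (PIGW, PLAUR, EZR, RDH13 and EZH2) had log2 differences between -1.15 and -1. With equal column sums, none of the 5 reached 2-fold, at -0.85, -0.94, -0.87, -0.85 and -0.87. The number of list genes at least 2-fold higher went from 10 to 14. Under that scaling the changed genes of the whole table in CD24 KO divided into 559 higher and 210 lower, in place of 342 and 388. The rises of CD24, CD44 and ALCAM in CD24 KO did not depend on this choice, since equal sums made them larger.

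**Figure D3:**
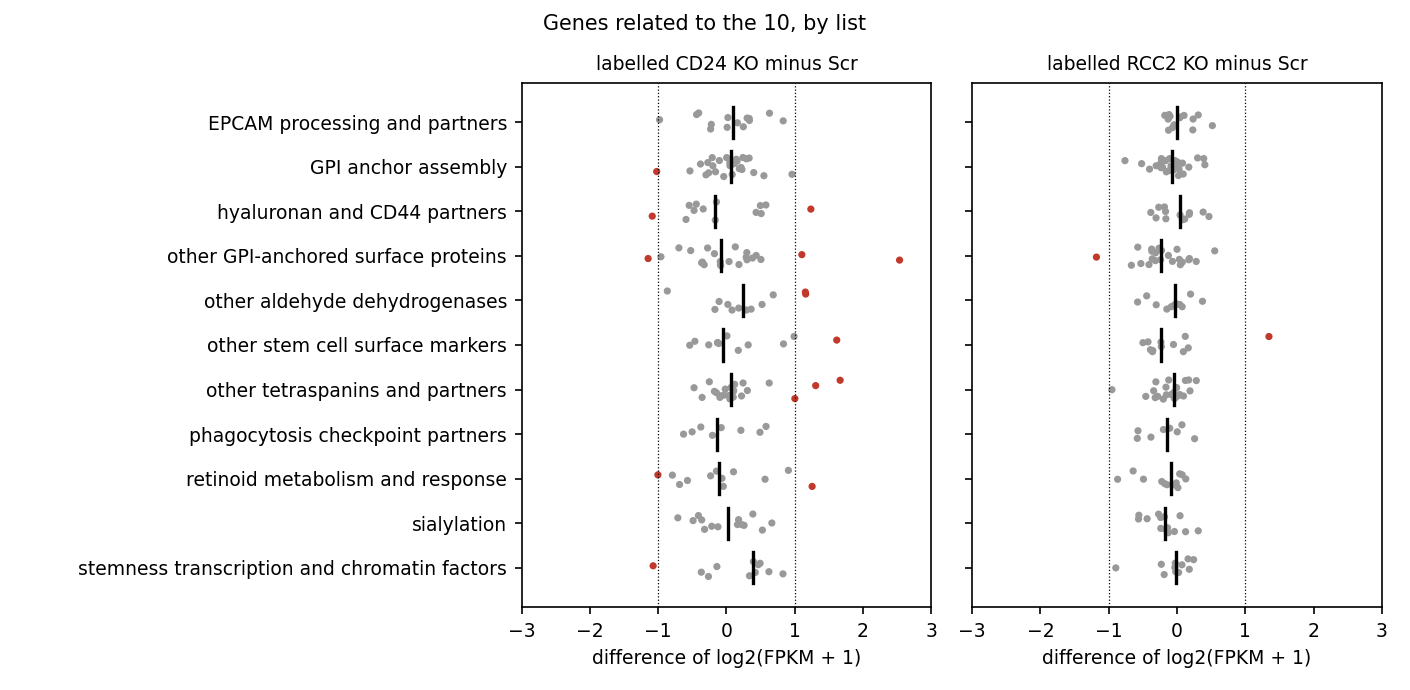
Difference of log2(FPKM + 1) from Scr for the 170 genes compared in 11 lists, in the column labelled CD24 KO (left) and that labelled RCC2 KO (right). Each point is a gene, red where it is at least 2-fold changed, black bars are list medians and dotted lines mark 2-fold. In CD24 KO 15 points are red and in RCC2 KO 2, 1 on the higher side and 1, ULBP2, on the lower.

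The genes whose pattern was most like that of CD24 were sought among 9376 genes above 0 in every column and with a highest value of at least 5 FPKM. Likeness was the distance between the pairs of log2 differences from Scr, over 3 conditions. MYO10, a motor protein of filopodia, was nearest, at a distance of 0.18, with 2.45, 11 and 6.07 FPKM in Scr, CD24 KO and RCC2 KO. It was followed by KCNQ3, a potassium channel subunit (0.23), MEGF9 (0.37), KRT7-AS (0.42) and CPA4, a carboxypeptidase (0.44). All of these were lower than CD24 in every column, and MEGF9 was the highest of them, at 17.8, 58.3 and 32.4 FPKM. The rest lay between 1.34 and 2.45 FPKM in Scr, where a change is understated by more than for CD24.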

How the data were processed

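RNA of 6 DU145 libraries was sequenced, and the authors deposited 1 table of FPKM values with 1 column for each condition, so that libraries of a condition were not given apart. The submitters' processing notes list HISAT, StringTie, Cufflinks and GATK, with no roles. The genome build is not given in the sources used here. The positions of 2 of the 10 genes overlapped their GRCh38 positions in GENCODE 29, so coordinates were not joined. The labels name a TruSeq RNA kit, and the methods its stranded mRNA form.

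Columns were assigned to conditions by the stem that library descriptions share. Values were used as scaled by the authors. Genes with at least 1 FPKM in a column were compared as log2(FPKM + 1), and calls were made at 2-fold. limma, leaving out libraries and a replicate block had been planned, but 1 value per condition allows no test. Depth could not be derived. Among genes under 0.3 FPKM, where single fragments would give repeated ratios, no ratio between columns was shared by more than 2.64% of the genes (2277 genes, RCC2 KO and Scr).

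The 10 genes, the lists, which were written from memory, and the rules were chosen with earlier results of these data known. Named from each list were at most 4 genes past 2-fold against Scr, above 0 in every column and with at least 5 FPKM in 1. Some genes of the lists are not reported here. Other list genes and markers given with values were chosen after their values were seen. CD24 was aligned to its copies in the GENCODE 29 transcripts with Biopython 1.88, by local alignment with scores of 1 for a match, -1 for a mismatch, -3 for opening a gap and -1 for extending it. Calculations used Python 3.11.15, NumPy 2.4.6 and pandas 2.3.3, figures matplotlib 3.10.9, and the comparison was tested on simulated data.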

Additional observations from a re-analysis of the deposited data

How the results depend on the processing

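No paired analysis was possible because the table holds 1 value per condition, and for the same reason no library could be left out. Alternatives were pseudocounts of 0.1 and 5, no filter, at least 10 FPKM in a column, median centring, quantile normalization, a 1.5-fold minimum and, added after the data had been seen, equal column sums. Under all of these, CD24, CD44 and ALCAM remained at least 2-fold above Scr in CD24 KO and CD24 in RCC2 KO, with log2 differences of 1.68 to 1.93 for CD24 in CD24 KO and 1.16 to 1.21 in RCC2 KO, 1.24 to 1.54 for CD44 and 1.01 to 1.29 for ALCAM. With no filter, at least 10 FPKM or the 1.5-fold minimum, each log2 difference was the same by construction, so those settings do not probe its size. Over all the alternatives, these included, 164 differences of the 7 genes stayed on their side of the minimum and 4 moved across it. All 4 were between the knockouts. There, the number of the 7 genes lower in RCC2 KO went from 0 to 1 with quantile normalization (CD44, -1.04) or equal sums (-1.05). At 1.5-fold it went to 2 (CD44 and ALCAM).

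The counts of list genes depended on the settings. In CD24 KO, the 10 higher became 2 with a pseudocount of 5, 6 with at least 10 FPKM and 21 at 1.5-fold, and the 5 lower became 10 with a pseudocount of 0.1, 2 with 5, 3 with at least 10 FPKM or median centring, 14 at 1.5-fold and 0 with equal sums. In RCC2 KO, the 1 lower became 7 with a pseudocount of 0.1 or at 1.5-fold and 0 with a pseudocount of 5 or at least 10 FPKM. Between the knockouts, the 7 higher became 2 with a pseudocount of 5, 3 with at least 10 FPKM, 12 at 1.5-fold and 4 with equal sums, and the 10 lower became 16 with a pseudocount of 0.1, 3 with 5, 5 with at least 10 FPKM, 33 at 1.5-fold and 18 with equal sums. Over all genes, the share of changed genes that were higher in CD24 KO was 46.8% as deposited, 72.7% with equal sums, 34.0% with at least 10 FPKM and 34.5% with a pseudocount of 5, and in RCC2 KO against CD24 KO it was 48.3%, 23.8%, 63.5% and 62.4%. Counts across all genes at 2-fold in CD24 KO ran from 96 higher and 182 lower with a pseudocount of 5 to 684 and 578 with 0.1, and in RCC2 KO from 23 and 31 to 122 and 321. At 1.5-fold they were 1225 and 1484 in CD24 KO and 186 and 490 in RCC2 KO. The median of all genes moved by more than 0.1 with equal sums, to 0.152 in CD24 KO and to -0.153 between the knockouts, and between the knockouts also with at least 10 FPKM, in the other direction, from 0.017 to 0.134.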
